A study of Mus musculus with 3 samples.

Results

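The genes described here are 10 antioxidant enzyme genes of erythroblasts, Prdx1, Prdx2, Prdx3, Prdx6, Gpx1, Gpx4, Sod1, Sod2, Cat and Gsr. They were taken by their symbols, which stand in both deposited tables, and all 10 were found among the 15058 genes of the joined data. The series sequenced total RNA of erythroblasts, which are red-cell precursors that still have a nucleus, sorted from the circulating blood of E10.5 mouse embryos. There are 3 libraries, 1 per group, and the design text describes material pooled from 5 embryos. The control library holds CD71+ Ter119-high cells of embryos with the genotype Drosha fl/fl or Drosha fl/+, labelled wild type for Drosha abundance. The Drosha-null library holds CD71+ Ter119-high cells of Drosha fl/fl;cdh5-cre+ conditional knockout (cKO) embryos, labelled null. The Ter119-low library holds CD71+ Ter119-low cells of cKO embryos of the same genotype, labelled as having Drosha as abundant as wild type. CD71 is the transferrin receptor, Ter119 is a red-cell surface antigen, and all 3 groups carry at least 1 floxed Drosha allele. Cre was driven by the endothelial gene Cdh5, so Drosha, the nuclear enzyme that starts microRNA processing, was deleted in blood cells through their endothelial ancestry, and the labels separate cKO cells that lost Drosha from those that kept it.

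Red cells carry hemoglobin and iron in the presence of oxygen, and hemoglobin that oxidises releases superoxide. Superoxide dismutases turn superoxide into hydrogen peroxide, which catalase, the glutathione peroxidases and the peroxiredoxins then remove. Glutathione peroxidases draw on reduced glutathione, which glutathione reductase regenerates with NADPH, and most peroxiredoxins draw on thioredoxin. Prdx2, Gpx1, Sod1 and Cat encode the main enzymes of mature red cells, and loss of Prdx2 or Sod1 is known to cause anemia in mice.

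Gpx1 and Gpx4, whose relation to each other differed most between the libraries, are both selenoproteins, in which a UGA codon that would otherwise end translation is read as selenocysteine at the active site. Of the longest annotated coding sequences of the 10 genes, these were the only ones with a stop triplet inside the reading frame, 1 each. It is codon 47 in Gpx1 and codon 129 in Gpx4, counted from the start codon. The coding sequence around it is shown 5′ to 3′ from the GENCODE M21 transcripts, with the selenocysteine codon in capitals:
Gpx1: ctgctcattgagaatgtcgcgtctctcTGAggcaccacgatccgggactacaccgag
Gpx4: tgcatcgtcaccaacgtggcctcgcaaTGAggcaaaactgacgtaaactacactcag
Over 556 aligned coding bases the pair is 67.6% identical, with no identical run longer than 9 bases. The closest pair among the peroxiredoxin genes, Prdx1 and Prdx2, is 71.2% identical, with a longest shared run of 14 bases. Counts were whole numbers for 9 of the 10 genes. Sod2 had fractional counts, which mark reads shared with another feature, and its values are therefore less certain.

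Total counts were 9497425 in the control, 9325814 in Drosha-null cells and 9418474 in Ter119-low cells, of which ribosomal RNA took 27.9% to 28.7%. Drosha had 324, 122 and 244 counts in that order, so the Ter119-low library lay between the others. All 12 erythroid markers had counts in every library. The 10 antioxidant genes together took 0.405% of control counts, 0.366% of Drosha-null counts and 0.415% of Ter119-low counts. There are no replicates, so the spread between embryos or pools is not known, and intervals here are 95% Clopper-Pearson intervals that cover counting error only, for reads that are not independent molecules. In sorted pools, fewer cells with a transcript and less of it per cell cannot be told apart.

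Levels of the genes were compared with each other by the authors' FPKM, reads scaled to gene length and library size. A trio stood far above the others in every library. In the control, Gpx1 stood at 1870.4 FPKM, the 18th most abundant gene of all. The copper-zinc superoxide dismutase gene Sod1 stood at 935 FPKM and Prdx2, the main cytosolic peroxiredoxin of red cells, at 916. Then came the cytosolic Prdx1 at 143 FPKM, the mitochondrial Prdx3 at 94.1, Prdx6, which uses glutathione in place of thioredoxin, at 88.3, and catalase, Cat, at 67.2. The lowest were Gpx4, which reduces lipid hydroperoxides in membranes, at 39.5 FPKM, the mitochondrial manganese superoxide dismutase gene Sod2 at 17.7 and the glutathione reductase gene Gsr at 13.4. Gpx1, Sod1 and Prdx2 together made up 79.6% of the reads of the 10 genes in the control, 72.0% in Drosha-null cells and 78.5% in Ter119-low cells.

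**Figure D1:**
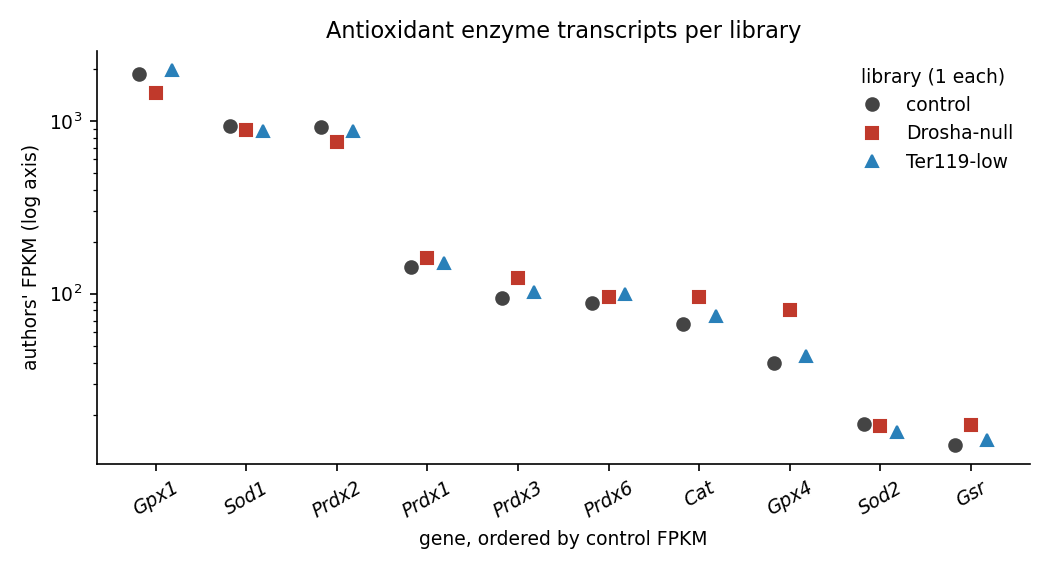
FPKM of the 10 genes (log axis) in the 3 libraries, 1 point per library, ordered by the control. Gpx1, Sod1 and Prdx2 lie between 757 and 1982 FPKM and the other 7 genes between 13.4 and 161, and the point that departs most from the other libraries is Gpx4 in the Drosha-null library.

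The order was nearly the same in the other libraries. In the Drosha-null library Gpx1 stood at 1459 FPKM, Sod1 at 880.3 and Prdx2 at 757, and in the Ter119-low library at 1982, 876 and 873. Sod1 and Prdx2 were close neighbours in the control and in the Ter119-low library. Cat (96.1 FPKM) passed Prdx6 (95.4) in the Drosha-null library, and Gsr (17.5) passed Sod2 (17.2), while in the Ter119-low library the control order held for all 10. The exchanged values are close together and do not order these genes in that library. Gpx4, at 80.8 FPKM, moved from rank 937 among all genes in the control to rank 477 in the Drosha-null library and stood at rank 885 in Ter119-low cells.

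The comparison of the Drosha-null with the control library is between cells sorted by 1 gate that carry the Drosha labels null and wild type, with 122 and 324 Drosha counts. None of the 10 genes passed the size rule in either direction. By TMM the most abundant of them, Gpx1, Prdx2 and Sod1, had log2 ratios of −0.80, −0.71 and −0.53, near the median of −0.73 for all genes at their level, and Gpx4 had the highest, 0.59. The median of the 10 was −0.30 against −0.02 over all 10769 genes tested, which are those at 1 CPM or more, a share of the library total, in either library. Ratios were scaled by TMM, which centres the bulk of the genes. The size rule calls a gene at a ratio of 2 or more either way with an interval that excludes 1. Against 0 of the 10, it called 20.2% of all genes tested in this comparison, 12.4% higher and 7.73% lower. Of those calls, 1242 of 1340 higher and 547 of 832 lower were in genes with a mean under 10 FPKM over the libraries. That class holds none of the 10. Of 688 genes between 50 and 500 FPKM, 12 were called higher and 71 lower.

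Superoxide dismutases come first in the pathway. Sod1 had 5268 counts in the control, 4848 in Drosha-null cells and 4877 in Ter119-low cells, and its log2 ratio, Drosha-null over control, was −0.53 (interval −0.58 to −0.47). Sod2 had 632 counts, 602 and 565 in the same order, with a ratio of −0.48 (−0.64 to −0.31). Both values are near 0 when scaled by total counts.

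Among the genes whose enzymes remove hydrogen peroxide, Gpx1 had 17753 counts in the control, 13558 in Drosha-null cells and 18622 in Ter119-low cells. It was the lowest of the 10 in the Drosha-null library, at a log2 ratio to the control of −0.80 (−0.83 to −0.76), a ratio of 0.576. Prdx2 had 7616, 6157 and 7178 counts, with a log2 ratio of −0.71 (−0.76 to −0.67). The Drosha-null library was thus the lowest of the 3 for both genes, by raw counts as well as by scaled ones. Cat did the reverse by raw counts, with 1587 in the control, 2226 in Drosha-null cells and 1747 in Ter119-low cells, and its scaled log2 ratio was 0.08 with an interval that held 0 (−0.01 to 0.17).

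The remaining peroxiredoxins lay between. Prdx1 had 1840, 2029 and 1903 counts (log2 ratio −0.27, −0.36 to −0.17), and Prdx6 had 1904, 2017 and 2140 (−0.32, −0.42 to −0.23). Mitochondrial Prdx3 had 1233, 1593 and 1322 counts and a ratio of −0.04 with an interval that held 0 (−0.15 to 0.07). Gpx4 was the exception in direction: it had 333 counts in the control, 666 in Drosha-null cells and 363 in Ter119-low cells, a log2 ratio of 0.59 (0.40 to 0.79). Gsr, which recycles glutathione for both peroxidases, had 334, 428 and 353 counts (−0.05, −0.26 to 0.16). In all, the counting interval lay below 0 for 6 of the 10 and above 0 for 1, against 30.8% and 29.1% of all genes tested. These shares are not matched for read counts, on which the width of an interval depends. All genes tested in the 3 level classes of the 10, from the highest level down, had medians of −0.73, −0.35 and −0.17. The members of those classes had medians of −0.71, −0.04 and −0.26. Whether the 10 differ from other genes at their level was not tested.

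**Figure D2:**
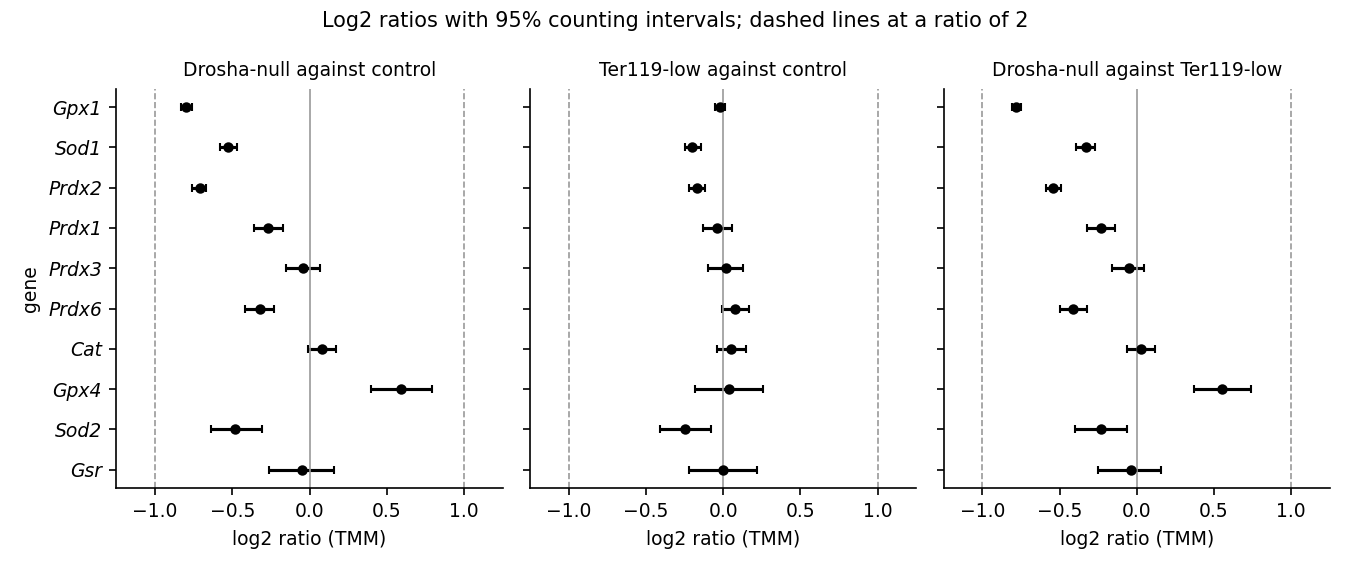
Log2 ratios of the 10 genes in the 3 pairwise comparisons (points) with 95% counting intervals (bars), scaled by TMM, with dashed lines at a ratio of 2 either way. In both panels with the Drosha-null library Gpx1 is lowest (−0.80 and −0.78) and Gpx4 highest (0.59 and 0.55), and in the Ter119-low panel all points lie within 0.25 of 0.

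The directions rest on how the libraries are scaled. Scaling by total counts put 6 of the 10 above 0 (Prdx1, Prdx3, Prdx6, Gpx4, Cat and Gsr) and moved the median of the 10 to 0.14, but it also moved the median of all genes tested to 0.43 and the share of calls that were higher from 61.7% to 89.5%. Under it Gpx4, at 1.03, was called higher. Gpx1 and Prdx2 stayed below 0 under each scaling of the whole table that was tried (TMM with and without ribosomal RNA and globins, DESeq2 size factors, total counts and the authors' FPKM), at −0.36 and −0.28 by total counts, and Gpx4 and Cat above 0. Sod1 and Sod2 were near 0 by total counts, at −0.09 and −0.04.

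Shares of reads within a library need no scaling. Gpx4 made up 1.84% of the reads of Gpx1 and Gpx4 in the control (1.65% to 2.05%), 4.68% in the Drosha-null library (4.34% to 5.04%) and 1.91% in Ter119-low cells (1.72% to 2.12%). The Drosha-null interval lay clear of both others, which overlapped each other. Catalase showed the same pattern among Cat, Gpx1 and Prdx2, with 5.89% of their reads in the control (5.61% to 6.18%), 10.1% in the Drosha-null (9.75% to 10.6%) and 6.34% in Ter119-low cells (6.06% to 6.64%).

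Prdx2 took 60.5% of the reads of the 4 peroxiredoxin genes in the control (59.6% to 61.3%), 52.2% in the Drosha-null library (51.3% to 53.1%) and 57.2% in Ter119-low cells (56.4% to 58.1%). Here the 3 intervals were apart from each other, with the Ter119-low library between the others. Within the family the share of Prdx3 went from 9.79% in the control to 13.5% in the Drosha-null library and that of Prdx1 from 14.6% to 17.2%. Prdx6 took 15.1% in the control and 17.1% in both cKO libraries. The dismutases kept their proportions, with Sod2 at 10.7% of Sod1 and Sod2 reads in the control (9.93% to 11.5%), 11.0% in the Drosha-null (10.2% to 11.9%) and 10.4% in Ter119-low cells (9.58% to 11.2%). These intervals overlapped.

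**Figure D3:**
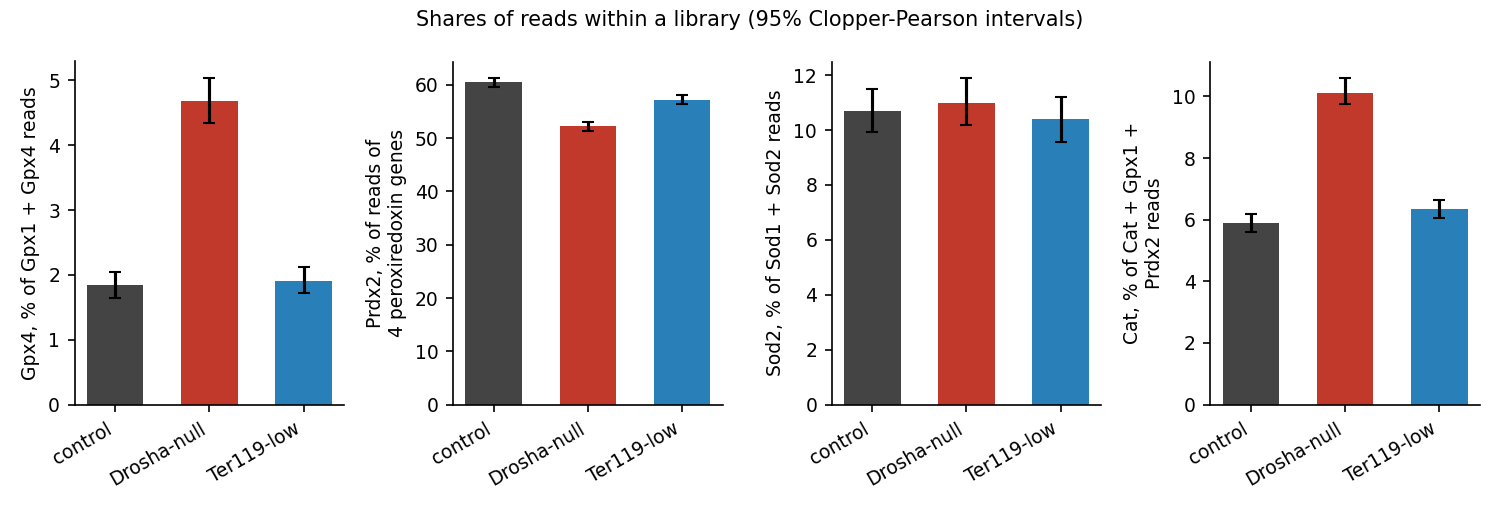
Shares of reads within each library (bars, axis from 0) with 95% Clopper-Pearson intervals for Gpx4, Prdx2, Sod2 and Cat, each among the genes named on its axis. Gpx4 and Cat take a larger share in the Drosha-null library (4.68% and 10.1%) than in the control (1.84% and 5.89%), Prdx2 a smaller one (52.2% against 60.5%), and Sod2 shares overlap.

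Embryonic globin reads offer a second reference from inside the erythroid program. Relative to Hba-x, Hbb-y and Hbb-bh1, which encode the hemoglobin chains of primitive erythroblasts, each of the 10 genes was higher in the Drosha-null library than in the control. Gpx1 had 7.83 reads per 1000 embryonic globin reads in the control (7.71 to 7.94), 8.87 in the Drosha-null (8.72 to 9.02) and 8.95 in Ter119-low cells (8.82 to 9.08). Prdx2 had 3.36 (3.28 to 3.43), 4.03 (3.93 to 4.13) and 3.45 (3.37 to 3.53). Cat had 0.70 (0.666 to 0.735), 1.46 (1.40 to 1.52) and 0.839 (0.801 to 0.88), and Gpx4 0.147 (0.131 to 0.163), 0.436 (0.403 to 0.47) and 0.174 (0.157 to 0.193). All 10 genes together had 17.0, 22.3 and 18.8 reads per 1000 globin reads. The denominator itself differed, at 23.9% of all counts in the control, 16.4% in Drosha-null cells and 22.1% in Ter119-low cells. By TMM, Gpx1 had the lowest Drosha-null ratio of the 10, and 13.0% of all genes tested stood below it. Genes above Gpx1 also rise relative to globin in the Drosha-null library, so this direction is not particular to the 10.

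The log2 ratio also moved with the level and the length of a gene over the whole table, and these values stand beside those of the 10 genes because the part of each in the result was not tested. The 101 genes tested with a mean FPKM of 500 or more over the libraries had a median log2 ratio, Drosha-null over control, of −0.73, and Gpx1, Prdx2 and Sod1, which are among them, had a median of −0.71. The share called lower in that class was 14 of 101, and 0 were called higher. Of 688 genes between 50 and 500 FPKM the median was −0.35 and the 90th percentile 0.26. Gpx4 (0.59) stood above that percentile and the other members of the class, Cat (0.08), Prdx3 (−0.04), Prdx1 (−0.27) and Prdx6 (−0.32), between the median and that percentile. In the class between 10 and 50 FPKM, with a median of −0.17 over 2794 genes, Sod2 (−0.48) stood below the median and Gsr (−0.05) above it.

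By length, 976 genes under 1100 bases had a median of −0.61, 2115 genes from 1100 to 2000 bases −0.22, and 7678 longer genes 0.10. Sod1 (661 bases), Prdx2 (942), Gpx4 (954) and Gpx1 (1066) are in the shortest class. Prdx1 and Prdx3 are in the middle class, and Prdx6 (−0.32), Sod2 (−0.48), Cat (0.08) and Gsr (−0.05) in the longest, where their median was −0.19.

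**Figure D4:**
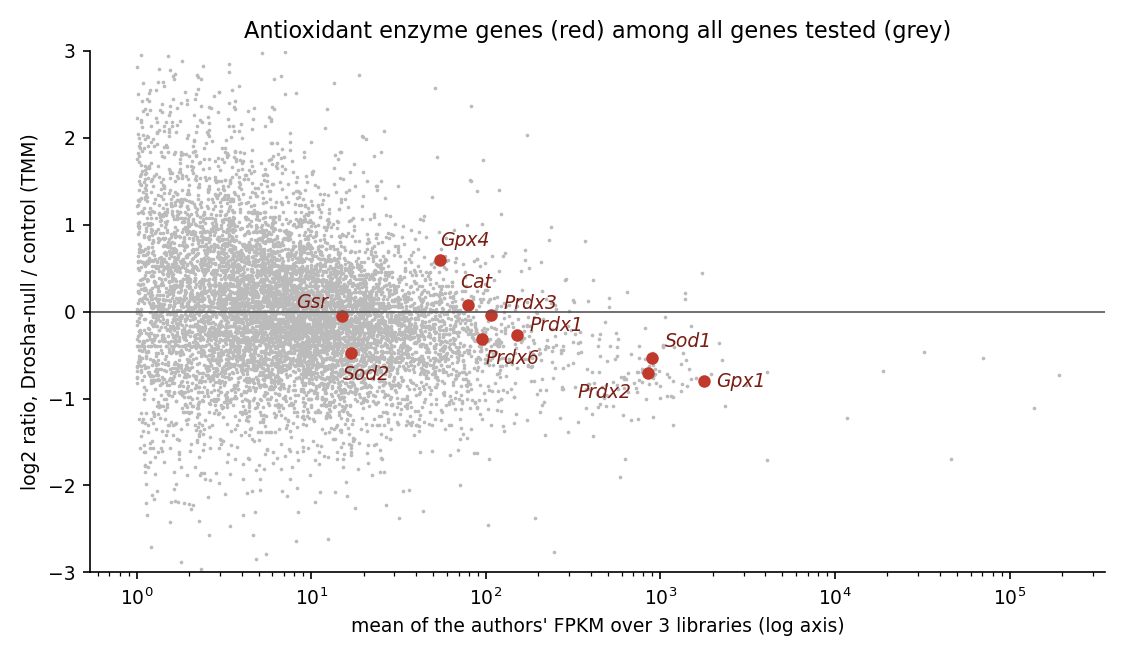
Log2 ratio, Drosha-null over control by TMM, against the mean FPKM over the 3 libraries (log axis) for 8827 of the 8872 genes tested at a mean of 1 FPKM or more, with 45 outside the vertical axis. Gpx1, Prdx2 and Sod1 lie within the body of genes at their level, whose median is −0.73, and Gpx4 lies above most genes at its own.

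In the Ter119-low library, whose label gives Drosha as wild type, the 10 genes stood close to the control. The log2 ratios ran from −0.25 for Sod2 to 0.08 for Prdx6, with a median of −0.01 against 0.00 over 10591 genes tested, and none was called, where 5.64% of all genes were, 2.9% higher and 2.74% lower. Of those calls, 305 of 307 higher and 285 of 290 lower were in genes with a mean under 10 FPKM, a class that holds none of the 10. Of 688 genes between 50 and 500 FPKM, 1 was called higher and 1 lower. The interval lay below 0 for 3 genes, Sod1 at −0.20 (−0.25 to −0.14), Prdx2 at −0.17 (−0.22 to −0.12) and Sod2 at −0.25 (−0.41 to −0.08), and held 0 for the other 7, against 14.2% of all genes with an interval below 0 and 13.5% above. These shares of intervals are not matched for read counts. Gpx1 stood at −0.02 (−0.05 to 0.01), Gpx4 at 0.04 (−0.18 to 0.26) and Cat at 0.05 (−0.04 to 0.15). This comparison uses the same control library as the one above.

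The cKO libraries share a genotype and differ in gate and in Drosha label, and their comparison uses the same Drosha-null library as the one with the control. Gpx1 stood at −0.78 (−0.81 to −0.75), Prdx2 at −0.54 (−0.59 to −0.49), Prdx6 at −0.41 (−0.50 to −0.32), Prdx1 at −0.23 (−0.32 to −0.14), Sod1 at −0.33 (−0.39 to −0.27), Sod2 at −0.23 (−0.40 to −0.06) and Gpx4 at 0.55 (0.37 to 0.74). Of the 10 genes 0 were called, against 16.7% of 10795 genes tested, 10.8% higher and 5.89% lower. Here too most calls, 1092 of 1170 higher and 455 of 636 lower, were in genes with a mean under 10 FPKM. The median was −0.23, with the interval below 0 for 6 genes and above 0 for 1, against 29.4% and 27.4% of all genes. These shares of intervals are not matched for read counts. Under total counts 7 of the 10 stood above 0 here, among them Sod1 and Sod2.

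The other redox genes were followed in 9 lists. The remaining peroxiredoxin, glutathione peroxidase and dismutase genes were scarce, with 7 of 10 matched, 4 tested and 0 called. The endoplasmic reticulum peroxiredoxin gene Prdx4 had 67, 143 and 79 counts in control, Drosha-null and Ter119-low cells (log2 ratio to the control in Drosha-null cells 0.68, called under total counts at 1.11). Prdx5 had 130, 115 and 100 (−0.58) and the extracellular Gpx3 13, 20 and 9.

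In the thioredoxin and glutaredoxin system, 1 of 13 tested genes was called higher and 2 lower in the Drosha-null library against the control (median −0.28). Over all genes tested the shares were 12.4% and 7.73%. Txnip, whose product binds and inhibits thioredoxin, had 4, 70 and 13 counts in control, Drosha-null and Ter119-low cells (3.59, 2.30 to 5.64). The mitochondrial thioredoxin gene Txn2, which serves Prdx3, had 434, 266 and 512 (−1.11, −1.34 to −0.89). Glrx5, needed for mitochondrial iron-sulfur clusters and for heme synthesis, was the most abundant gene of the list at 507 FPKM in the control and had 4152, 2570 and 4017 counts (−1.10, −1.17 to −1.03). Both genes missed the size rule under total counts, at −0.68 and −0.67. The cytosolic thioredoxin gene Txn1 stood at −0.63 (1217, 1040 and 1090 counts), and Txnrd3 had 51, 42 and 40 counts. In the Ter119-low library Glrx (63, 96 and 135 counts) was called higher than the control by TMM, and by total counts Txnip as well (1.60).

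NADPH, on which both the glutathione and the thioredoxin arm depend, comes from several enzymes, and 3 of 14 genes were called higher in the Drosha-null library and 0 lower (median −0.25), against 12.4% and 7.73% of all genes tested. They are Me1 (malic enzyme) with 21, 154 and 20 counts (2.44, 1.80 to 3.20), and the isocitrate dehydrogenase genes Idh1 with 41, 165 and 75 (1.59, 1.10 to 2.13) and Idh2 with 55, 195 and 66 (1.41, 0.98 to 1.88). All 3 stood at 3.5 FPKM or less in the control, and of 7186 genes with a mean under 10 FPKM, 1242 were called higher. The pentose phosphate gene Taldo1, the lowest of the list, had 432, 293 and 477 counts (−0.97, −1.19 to −0.75). Other genes of that pathway, chosen after their values were seen, were Tkt (1045, 1898 and 1069 counts, 0.45, 0.34 to 0.56), G6pdx (−0.30) and Pgd (−0.45). Nadkd1 (reference symbol Nadk2, a mitochondrial NAD kinase), the most abundant of the list, stood at −0.56. Nnt, which makes NADPH in mitochondria, had 177, 232 and 122 counts and was the lowest of the list in Ter119-low cells (−0.62, −0.97 to −0.28).

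Genes of glutathione synthesis and transfer had 1 of 17 called higher and 0 lower (median −0.26), against 12.4% and 7.73% of all genes tested. The most abundant, Mgst3 (microsomal glutathione transferase, 2687, 2192 and 2290 counts) and Slc7a11 (cystine importer, 6110, 5897 and 6157), stood at −0.70 and −0.46. The called gene, the transferase gene Gstt1, had 3, 20 and 2 counts (2.18, 0.58 to 4.72). Hagh stood lowest in both comparisons with the control (66, 49 and 49 counts), and Ggct had 17, 44 and 36 counts, with log2 ratios of 0.95 and 0.98 that passed the size rule under total counts.

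Selenium genes bear on Gpx1 and Gpx4 directly. Of 9 genes of selenoprotein synthesis, Scly, which frees selenium from selenocysteine, was called higher in the Drosha-null library (36, 118 and 79 counts, 1.30, 0.76 to 1.89) and also in Ter119-low cells (1.04, 0.46 to 1.66). Pstk, a kinase of the selenocysteine tRNA pathway, was called lower in the Drosha-null library by TMM (70, 43 and 81 counts, −1.10), though not by total counts (−0.67). Of all genes tested, 12.4% were called higher and 7.73% lower in the Drosha-null library, and 2.9% higher in Ter119-low cells. The list median was −0.43, the value of the selenophosphate synthetase genes Sephs1 and Sephs2, and the elongation factor gene Eefsec stood at −0.55.

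Of 16 entries for other selenoproteins, 3 were called higher in the Drosha-null library and 0 lower (median −0.11), against 12.4% and 7.73% of all genes tested. Sepp1 (reference symbol Selenop, a secreted selenium carrier) had 30, 145 and 27 counts (1.85, 1.29 to 2.48), Sepn1 (Selenon) had 21, 83 and 16 (1.56, 0.87 to 2.34) and Selm (Selenom) had 1, 18 and 2 (3.29, 1.10 to 9.14). The most abundant, Sepw1 (Selenow), had 2682, 2002 and 2390 counts (−0.83), followed by 2700094K13Rik (Selenoh) at −0.60, and Sepx1 (Msrb1, which repairs oxidised methionine) was the lowest at −0.89. Other well-counted genes of the list went both ways, and those given here were chosen after their values were seen. Above the control stood 2810407C02Rik (Selenot, 770, 1173 and 926 counts) at 0.20 (0.07 to 0.33), Txnrd1 at 0.32 and Ept1 (Selenoi) at 0.33. Below it stood Selenof (522, 481 and 457 counts) at −0.52 (−0.71 to −0.34), Txnrd2 at −0.50 and Sephs2 at −0.43. The 3 called genes had at most 30 control counts, and of 7186 genes with a mean under 10 FPKM, as theirs are, 1242 were called higher. H47 (Selenos) had 82, 157 and 120 counts (0.53).

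Among 6 tested genes for ferritin, heme breakdown and quinone reduction none was called higher and 1, Nqo1, lower (median −0.45). The shares over all genes tested were 12.4% and 7.73%. The ferritin genes Fth1 (37213, 30408 and 33687 counts) and Ftl1 (28479, 20991 and 30991), which store iron in a form that cannot drive radical formation, stood at −0.70 and −0.85, near Gpx1. Nqo1, a quinone reductase and a standard target of the transcription factor NRF2, had 31, 19 and 37 counts (−1.09 by TMM, called lower, and −0.67 by total counts, not called). Hmox1, the inducible heme oxygenase gene, had 7, 3 and 6 counts and was too scarce to be tested, and Hmox2 had 87, 135 and 84. Of 7 tested genes for repair of oxidised proteins and nucleotides, 0 were called higher and Nudt1, which clears oxidised nucleotides, lower (108, 68 and 103 counts, −1.07, and −0.64 by total counts, not called). Park7, the most abundant, stood at −0.53 and Oxr1 at 0.92 (1.35 by total counts, called). Msra (18, 12 and 25 counts) and Msrb3 (10, 12 and 4) were the highest and lowest of that list in the Ter119-low library, and neither was called there.

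**Figure D5:**
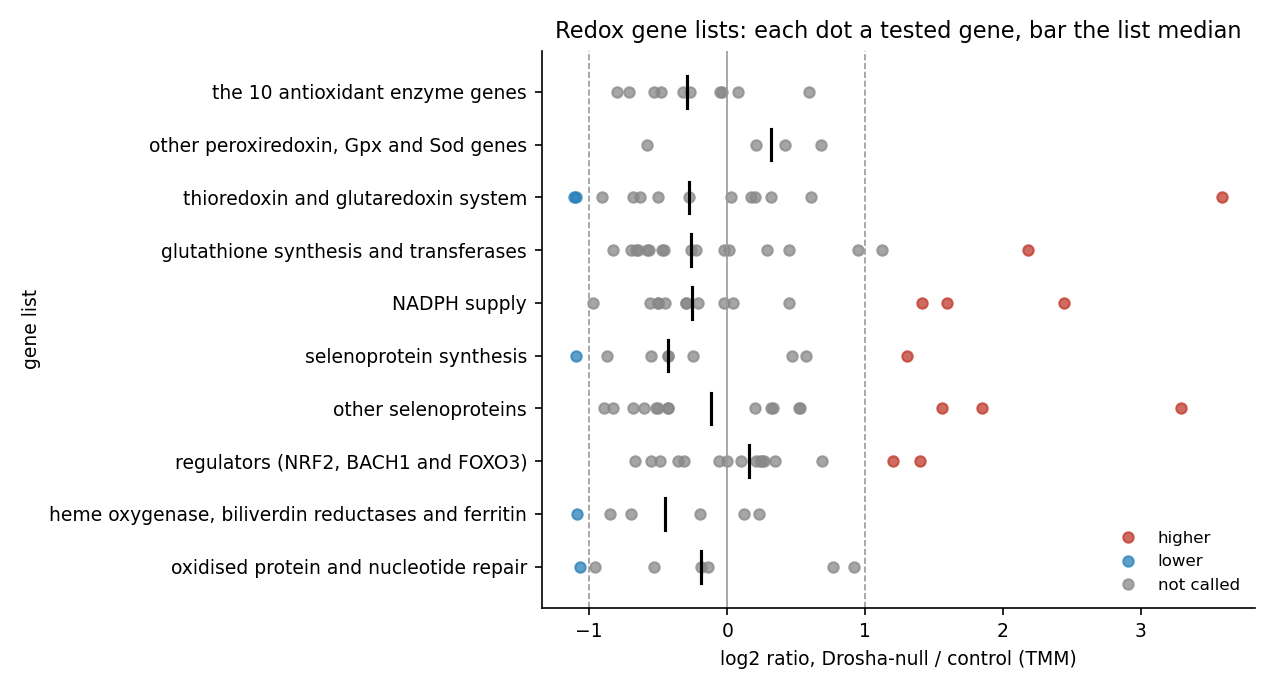
Log2 ratios, Drosha-null over control by TMM, of the tested genes (dots) on each redox list, with the list median as a bar and dashed lines at a ratio of 2; red dots were called higher, blue lower, grey neither. The 10 antioxidant enzyme genes, in the top row, hold no called gene, and the NADPH supply and other selenoprotein lists hold 3 called higher each. Of all genes tested, 12.4% were called higher and 7.73% lower.

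Between the cKO libraries, 0 to 3 genes of each of these lists were called, where 10.8% of all genes tested were called higher and 5.89% lower. Higher in Drosha-null cells were Txnip, Gstt1, Gstk1, Idh2, Me1, Selm, Sepp1, Sepn1, Oxr1 and, of the regulators, Ywhaz, and these calls held by total counts. Lower by TMM were Txn2, Taldo1, Pstk, Trnau1ap, Nqo1 and Msra, and none of these was called by total counts (log2 ratios −0.93, −0.69, −0.89, −0.69, −0.93 and −1.01).

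The regulators of these enzymes are NRF2 (Nfe2l2), which activates antioxidant genes and is held back by KEAP1 and countered by BACH1, and the FOXO factors, which activate Cat and Sod2 and are kept out of the nucleus by 14-3-3 proteins. Of 16 tested regulator genes 2 were called higher in the Drosha-null library against the control and 0 lower (median 0.15). Over all genes tested the shares were 12.4% and 7.73%, so the higher calls are near the share of all genes. Ywhaz, which encodes 14-3-3ζ, a known target of the erythroid microRNA miR-451, had 1903, 6662 and 2135 counts (1.40, 1.33 to 1.47), and the other was Foxo1 (log2 ratio 1.20). The mean of Ywhaz lay between 50 and 500 FPKM, where 12 of 688 genes were called higher. That of Foxo1 lay under 10 FPKM, where 1242 of 7186 were. Foxo3, the main FOXO gene of red cells, had 473, 489 and 516 counts (−0.36, −0.54 to −0.17), above 0 by total counts. Nfe2l2 had 921, 1310 and 887 (0.10, −0.02 to 0.22), Keap1 138, 175 and 151 (−0.06), and Bach1 183, 293 and 147 (0.27). Cul3 and Rbx1, subunits of the ligase that degrades NRF2, stood at 0.21 and −0.67, and the stress gene Sesn2 had 41, 88 and 87 counts (0.69, called by total counts at 1.12). Foxo4 had 104, 111 and 79. In the Ter119-low library 0 of 16 regulators were called, against 5.64% of all genes tested.

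Promoters were searched over the 250 bases before the start sites in RefSeq (GRCm38.p6), which hold an entry for 8 of the 10 genes (not Prdx6 or Gsr), on both strands. The core of the antioxidant response element to which NRF2 binds, written TGACNNNGC, was found before Prdx1 and Sod1, against 11.5% of all 27025 genes. The matches are shown along the gene's strand with the motif, here in its reverse complement, in capitals:
Prdx1: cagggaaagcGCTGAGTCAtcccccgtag
Sod1: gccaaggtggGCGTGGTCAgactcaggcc
They begin at −133 and −56 from the start. GATAA, the core read by GATA1, was found before Gpx4 alone of the 8, against 25.5% of genes; Gpx4 has several annotated starts, which gives it more windows. The CACCC box CCACACCC was found before Prdx3 (3.68% of genes) and the FOXO core GTAAACA before none of the 8 (3.54% of genes). A match is only a run of letters, and binding was not measured.

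MicroRNA seed matches were searched in the longest annotated 3′ untranslated region of each gene, for the erythroid miR-451a and miR-144-3p and for let-7. The mature sequences from RefSeq (GRCm38.p6) are shown because Drosha makes the first cut in their precursors, with the seed, bases 2 to 8, in capitals:
miR-451a: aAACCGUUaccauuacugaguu
miR-144-3p: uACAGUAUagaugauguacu
let-7a-5p: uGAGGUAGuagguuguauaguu
No member had a 7-base match to miR-451a, which 2.10% of 9578 tested genes with such a region had. Prdx1 and Sod2 had matches to miR-144-3p (14.5% of genes) and Sod2 to let-7 (11.1%). The miR-144-3p matches, in capitals, are these:
Prdx1: atgaaaaaaaaATACTGTcaagttgacag
Sod2, first: aacagtacagcATACTGTtaattcctgag
Sod2, second: agtattcttgaATACTGTtagacctgaca
The annotated regions, 1566 bases for Prdx1 and 4963 for Sod2, are longer than the whole genes by the deposited lengths of 1417 and 3824 bases, so the transcripts counted may lack these sites.

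By the pattern over the 3 libraries, the genes nearest to Gpx1 among 811 at 100 CPM or more in each were Zmiz1, Psme3 and Zfp106. Their distances over the 2 log2 ratios to the control were 0.037, 0.047 and 0.063, and 3 libraries give little power to tell such patterns apart.

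The genes lie on several chromosomes of GRCm38 by GENCODE M21, although the build behind the deposited counts is not given in the sources used here. Gpx1 is at chr9:108338903-108340343 (plus strand), Gpx4 at chr10:80047166-80056439 (plus), Prdx2 at chr8:84969587-84974834 (plus), Sod1 at chr16:90220754-90226329 (plus) and Cat at chr2:103453849-103485160 (minus).

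Markers of other blood and embryonic cells were scarce beside the 34124 to 39070 reads of the 10 genes. Summed over the 11 listed of 15 macrophage and granulocyte markers, counts were 71 in the control, 91 in Drosha-null cells and 36 in Ter119-low cells, led by Lyz2 (22, 27 and 18) and Cd68 (17, 13 and 5), with Cd14 at 0 in the control. The 5 listed of 6 megakaryocyte and platelet markers summed to 101, 176 and 124 (Itga2b 79, 126 and 96; Gp1ba 3, 39 and 5), and Pf4 and Ppbp were at 0 in the Drosha-null library. Endothelial markers (9 of 9) summed to 90, 257 and 99, with Vwf at 15, 38 and 26, and of them Pecam1 (3, 55 and 4 counts) and Tek (4, 25 and 1) were called higher in the Drosha-null library against the control. Cardiac muscle markers (8 of 8) summed to 76, 306 and 61, with Ttn at 37, 181 and 42 and Actc1 at 19, 86 and 9. Visceral endoderm and liver markers (3 of 7) summed to 5, 6 and 4. Also called higher in the Drosha-null library against the control were Mpo (6, 23 and 0 counts) of the granulocyte markers, Gp1ba, Actc1 and Ttn. The called genes were 1 of 4 tested macrophage and granulocyte markers, 1 of 3 megakaryocyte, 2 of 7 endothelial and 2 of 3 cardiac ones. Of all genes tested, 12.4% were called higher, and of 7186 with a mean under 10 FPKM, as theirs are, 1242 were. The megakaryocyte, endothelial and cardiac sums were higher in the Drosha-null library, as were the scarce Me1, Idh1, Sepp1 and Txnip. The part of other cells in the counts of those genes was not tested. Of the embryonic globin genes, Hbb-bh1 (log2 ratio −1.70) and Hbb-y (−1.11) were called lower in Drosha-null cells against the control and Hba-x (−0.73) was not, and by total counts Hbb-bh1 (−1.27) was called and Hbb-y (−0.68) was not.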

How the data were processed

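Of 2 deposited tables, each pairs 1 cKO library with the control. They hold the authors' expected counts per gene, unscaled and fractional for some genes per the file headers and values, and FPKM, which the authors scaled to gene length and library size and set to 0.001 at 0 counts. The aligner, counting program, annotation and build were not given in the sources used here. Control counts were equal in both tables for all 13882 shared genes, and joining on the gene ID gave 15058 genes. Counts were rounded to whole numbers and scaled by TMM in edgeR 4.0.16 (R 4.3.3), with factors of 0.885, 1.19 and 0.946. Log2 ratios had 0.5 counts added, scaled to library size, and exact 95% Clopper-Pearson intervals (SciPy 1.17.1). With 1 library per group no test was fitted. Genes reaching 1 CPM in at least 1 library of a pair were tested against the size rule, a ratio of 2 or more with an interval that excludes 1, and the procedure was tested on simulated data. The genes and the lists were chosen with earlier results of these data known. The genes named are the 10, fixed regulators, and from each list the most abundant and the most extreme, with called genes added. A few more are marked as chosen after their values were seen. Alternatives were total counts, DESeq2 1.42.0 size factors, TMM without ribosomal RNA and globins, 2 counts added, no CPM filter, a ratio of 1.5 and the authors' FPKM. The calls of the erythroid marker list as a whole are not reported here.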

Additional observations from a re-analysis of the deposited data

How the results depend on the processing

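No paired analysis was possible because each group has 1 library, and for the same reason no library could be left out. DESeq2 size factors, TMM without ribosomal RNA and globins, and 2 added counts each left all 30 log2 ratios of the 10 genes within their counting intervals and all counts of calls at 0, as did no CPM filter for the calls. Total counts and the authors' FPKM each moved 25 of 30 values outside the interval. Both put the median of the 10 genes at 0.14 in Drosha-null cells against the control, 0.09 in Ter119-low cells against the control and 0.11 between the cKO libraries. Total counts called 1 gene higher, Gpx4, in the Drosha-null library against the control. A size rule of 1.5 called 1 higher there (Gpx4) and 2 lower (Gpx1 and Prdx2), and 1 lower between the cKO libraries (Gpx1). Counting error limits Gpx4, Gsr and Sod2 most, and differences between pools were not measured.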
